A study of Mus musculus with 9 samples.

Results

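Genes for myeloid alarmins and granule proteins were followed in primary mouse microglia that had been fed apoptotic cells. The 8 genes were S100a8, S100a9, S100a4, Lcn2, Camp, Ngp, Ltf and Saa3. Their probes were found by the gene name in the array files, which gave 10 of 55,681 probes and 8 of 34,650 gene names. S100a4 and Camp had 2 probes each and the other genes had 1. The set was chosen on the measured late rise of S100a8, so the levels of these genes in the 3 groups are given as a description, with no test. For 7 of the 8 genes, 1 or more of the 9 arrays gave a signal well above background, and for Ltf none did.

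The 3 groups of microglia had 3 arrays each. The study's methods describe the samples of a group as independent experiments. Control microglia received no apoptotic cells and were collected at 0 h, and the other groups had phagocytosed for 3 h (Ph3h) or 24 h (Ph24h). All groups came from the brains of pooled newborn fms-EGFP pups, in which the promoter of Csf1r (fms) drives EGFP, and all were grown for about 14 days with 5 ng/ml GM-CSF, a myeloid growth factor, before the microglia were shaken off and left to settle for at least 24 h. The cells fed were SH-SY5Y, a human neuroblastoma line, labeled with CM-DiI and treated with 3 μM staurosporine for 4 h, at about 1 per microglial cell. Since no unfed microglia were collected at 3 h or 24 h, feeding and the time in culture cannot be told apart.

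S100 proteins are small calcium-binding proteins. S100a8 and S100a9 pair as calprotectin, an abundant cytosolic protein of neutrophils and monocytes that binds zinc and manganese, and that acts on Tlr4 and Ager as an alarmin once it is outside the cell. Lcn2 binds bacterial siderophores, Camp encodes the precursor of the cathelicidin peptide, Ltf is the iron-binding lactoferrin, Ngp is a granule protein of the cystatin family, and these 4 are made in large amounts as neutrophils mature. Saa3 is an acute phase apolipoprotein that macrophages make, and S100a4 is an S100 protein tied to cell motility.

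Single-color signals were scaled to the 75th percentile of each array, and a scaled log2 level of 0 is a signal equal to that percentile. The percentile ran from 356 to 473 intensity units in control, from 185 to 211 at 3 h and from 156 to 161 at 24 h, 2.07-fold lower at 3 h and 2.59-fold lower at 24 h. A scaled rise of less than 1.05 at 3 h or 1.38 at 24 h on the log2 scale is therefore a fall in raw signal. Scaling to the median instead would lower every difference by 0.24 at 3 h and by 0.51 at 24 h. Probes well above background numbered 27,503 to 29,288 per control array, 25,623 to 27,942 per Ph3h array and 26,062 to 26,454 per Ph24h array, and no spot was saturated. Of 15 microglial markers, 12 to 14 were well above background per array. The defining markers did not move alike: Cx3cr1, the fractalkine receptor, fell by 4.56 at 24 h (SE 0.18, limma adjusted p = 1.1e-06), P2ry12, a purinergic receptor, was not well above background on any Ph24h array, and Tmem119 fell by 0.41 (SE 0.10, limma adjusted p = 0.0095). These arrays read whole cultures, in which fewer cells of a type and less RNA per cell cannot be told apart.

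The signal of each gene was read by 60-base probes, and 3 that lie in coding sequence are shown. The S100a8 and Saa3 values below rest on the probes shown, and the S100a4 probe shown is the second, which served only as a check of the brighter one. The S100a8 probe is at chr3:90473778-90473837 on the plus strand of mm9, the second S100a4 probe at chr3:90409734-90409793 on the plus strand, and the Saa3 probe at chr7:53970389-53970448 on the minus strand.
S100a8 probe: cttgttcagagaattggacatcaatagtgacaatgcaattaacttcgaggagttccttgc
S100a4 second probe: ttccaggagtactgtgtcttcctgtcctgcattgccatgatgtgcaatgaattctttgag
Saa3 probe: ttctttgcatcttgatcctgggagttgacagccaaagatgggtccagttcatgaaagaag

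The 250 bases before the start sites of S100a8, S100a9, S100a4, Camp and Saa3 are shown because these are the 5 genes of the set with a higher scaled level at 24 h among those measured. They come from RefSeq on GRCm38.p6, at chr3:90668821-90669070 (plus strand), chr3:90695722-90695971 (minus strand), chr3:90603520-90603769 (plus strand), chr9:109849457-109849706 (minus strand) and chr7:46715677-46715926 (minus strand). Capitals mark matches, on either strand, to the C/EBP letters TTNNGNAA or the PU.1 letters GAGGAAG.
S100a8 upstream: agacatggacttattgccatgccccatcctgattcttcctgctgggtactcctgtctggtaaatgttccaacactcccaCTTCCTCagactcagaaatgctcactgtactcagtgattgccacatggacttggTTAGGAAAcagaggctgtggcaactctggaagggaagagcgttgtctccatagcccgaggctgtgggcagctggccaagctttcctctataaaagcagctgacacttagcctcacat
S100a9 upstream: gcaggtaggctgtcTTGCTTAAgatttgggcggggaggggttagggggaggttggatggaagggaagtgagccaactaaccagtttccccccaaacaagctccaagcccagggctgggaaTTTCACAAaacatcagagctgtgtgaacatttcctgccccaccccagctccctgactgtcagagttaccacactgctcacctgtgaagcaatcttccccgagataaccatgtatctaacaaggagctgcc
S100a4 upstream: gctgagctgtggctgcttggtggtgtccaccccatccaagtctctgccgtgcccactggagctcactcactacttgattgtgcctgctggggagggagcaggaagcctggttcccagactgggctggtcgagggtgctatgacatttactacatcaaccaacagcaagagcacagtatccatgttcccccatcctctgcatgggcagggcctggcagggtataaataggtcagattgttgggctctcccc
Camp upstream: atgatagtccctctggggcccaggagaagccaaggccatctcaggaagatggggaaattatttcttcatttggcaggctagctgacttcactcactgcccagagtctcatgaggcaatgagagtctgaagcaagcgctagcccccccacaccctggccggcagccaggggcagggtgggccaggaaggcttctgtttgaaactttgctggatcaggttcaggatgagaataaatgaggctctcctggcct
Saa3 upstream: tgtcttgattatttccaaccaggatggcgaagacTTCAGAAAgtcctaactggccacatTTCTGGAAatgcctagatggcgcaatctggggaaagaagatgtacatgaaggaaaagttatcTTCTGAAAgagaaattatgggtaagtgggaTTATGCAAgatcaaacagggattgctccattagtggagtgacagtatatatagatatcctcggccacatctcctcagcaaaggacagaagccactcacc

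The C/EBP letters occurred in 36.8% and the PU.1 letters in 10.6% of 32,851 windows of this length before mouse start sites. The S100a8 window held a C/EBP match at -117 and a PU.1 match at -171 from the start site. The S100a9 window held C/EBP matches at -236 and -130, and the Saa3 window held 4, at -216, -191, -129 and -99. Among the other genes, the Ngp window held 3 C/EBP matches, the Ltf window 2, and the Lcn2 window 1 beside a PU.1 match at -21, whereas no match lay before S100a4 or Camp. STAT letters (TTCNNNGAA), AP-1 letters (TGANTCA) and the NF-kB motif, found in 7.02%, 6.75% and 7.25% of all windows, were not found in the window of any of the 8 genes. A match in letters does not show that a factor binds there, nor does the lack of one show the opposite.

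S100a8 was at a similar scaled level in control and Ph3h microglia and was far higher in Ph24h microglia. Its intensity was 2542, 2354 and 1651 in control cultures, 1055, 1010 and 942 after 3 h of feeding and 67,870, 79,606 and 70,885 after 24 h. Every Ph24h array was above every other array, whereas the Ph3h arrays lay below the control arrays before scaling and among them after it. Scaled log2 levels were 2.39 ± 0.15 in control, 2.34 ± 0.10 in Ph3h and 8.84 ± 0.13 in Ph24h (mean ± SD, n = 3 arrays). The difference from control was -0.05 at 3 h and 6.46 at 24 h on the log2 scale (SE 0.11), 87.8-fold at 24 h. The choice of scaling moved the size but not the direction at 24 h, with 5.95 under median scaling and 5.08, or 33.8-fold, without scaling.

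S100a9, the partner of S100a8 in calprotectin, was measured near the floor of the arrays. Its intensity was 6.91, 2.62 and 2.70 in control cultures, 2.00, 2.16 and 2.69 after 3 h of feeding and 13.03, 13.88 and 16.82 after 24 h. The 3 Ph24h arrays were the only ones on which it was well above background, and they did not overlap with the others. Scaled log2 levels were -6.81 ± 0.63, -6.45 ± 0.26 and -3.45 ± 0.17 (mean ± SD, n = 3 arrays). Since control was dim, the rise at 24 h is given as a bound of at least 3.04-fold, which holds only for these scaled levels. Before scaling, the lowest signals well above background on the control arrays were 13.87, 12.35 and 11.03, near the Ph24h intensities. The fitted S100a9 difference of 3.36 was 2.58 with quantile normalization and 1.99 without scaling. It was 0.45 with normexp background correction (offset 50) together with quantile normalization.

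S100a4 was at a similar scaled level in control and Ph3h microglia and somewhat higher in Ph24h. Its brighter probe gave an intensity of 6379, 5321 and 4091 in control cultures, 2522, 2414 and 1768 after 3 h of feeding and 3452, 3865 and 3490 after 24 h. In raw signal the Ph24h arrays were thus below the control arrays. After scaling they were above, with log2 levels of 3.66 ± 0.12 in control, 3.48 ± 0.29 in Ph3h and 4.51 ± 0.11 in Ph24h (mean ± SD, n = 3 arrays). The difference at 24 h was 0.85 (SE 0.15, 1.80-fold) with scaling and -0.53 without, so its direction depends on the scaling. The second probe gave 0.84, and at 3 h the probes gave -0.18 and -0.12.

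Lcn2 was lower after phagocytosis, most at 3 h. Its intensity was 3780, 3498 and 2602 in control cultures, 460, 436 and 472 after 3 h of feeding and 613, 641 and 1121 after 24 h. The groups did not overlap with control in raw signal or in scaled level, and Ph24h replicate 3, on the second slide, was higher than the other Ph24h arrays. Scaled log2 levels were 2.99 ± 0.11 in control, 1.20 ± 0.07 in Ph3h and 2.27 ± 0.46 in Ph24h (mean ± SD, n = 3 arrays). Lcn2 was 3.44-fold lower than control at 3 h, with a difference of -1.78, and 1.65-fold lower at 24 h, with a difference of -0.72 (SE 0.21). Without Ph24h replicate 3 the difference at 24 h was -0.99, and on the first slide alone it was -1.04.

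Camp was higher at both times, and more so at 24 h. Its brighter probe gave an intensity of 61.5, 65.2 and 43.7 in control cultures, 55.8, 46.9 and 67.5 after 3 h of feeding and 160, 159 and 177 after 24 h. The Ph24h arrays stood above all others, whereas control and Ph3h overlapped in raw signal and separated only after scaling. Scaled log2 levels were -2.88 ± 0.19, -1.82 ± 0.23 and 0.06 ± 0.06 (mean ± SD, n = 3 arrays), which is 2.08-fold higher than control at 3 h and 7.66-fold higher at 24 h. Without scaling the log2 difference was 0.0039 at 3 h and 1.56 at 24 h. The second probe, which overlaps the first on the transcript, gave 1.09 and 2.77.

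The remaining granule genes were dim. Ngp had an intensity of 17.0, 12.8 and 15.7 in control cultures, 2.43, 2.52 and 2.94 after 3 h of feeding and 2.61, 2.50 and 2.77 after 24 h. Only control replicate 3 was well above background, and the control arrays stood above all fed arrays, with log2 differences of -1.47 at 3 h and -1.14 at 24 h and no fold that the background allows. Ltf had an intensity of 2.11 to 8.54 over the 9 arrays and was never well above background. No level of Ltf can be given in any group.

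Saa3 gave a bright signal in all groups and was higher in Ph24h after scaling. Its intensity was 73,318, 65,353 and 45,799 in control cultures, 30,945, 34,599 and 30,002 after 3 h of feeding and 72,104, 69,832 and 77,462 after 24 h. Control and Ph24h overlapped in raw signal, and after scaling every Ph24h array was above every other array. Scaled log2 levels were 7.20 ± 0.16 in control, 7.33 ± 0.19 in Ph3h and 8.85 ± 0.05 in Ph24h (mean ± SD, n = 3 arrays). The difference was 0.13 at 3 h and 1.65 at 24 h (SE 0.12, 3.14-fold), and without scaling it was -0.92 at 3 h and 0.28 at 24 h.

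**Figure D1:**
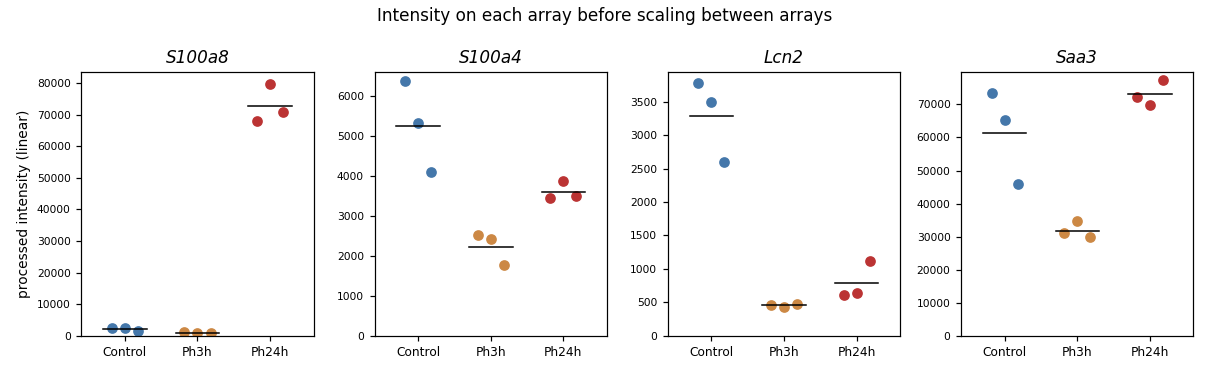
Processed intensity (linear axis from 0, not scaled between arrays) of S100a8, S100a4, Lcn2 and Saa3 in control, Ph3h and Ph24h microglia, with 1 point per array and the mean of 3 arrays as a bar. S100a8 lies at 942 to 2542 on the control and Ph3h arrays and at 67,870 to 79,606 on the Ph24h arrays, whereas the Ph24h arrays of Saa3 overlap with control and those of S100a4 and Lcn2 lie below it.

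**Figure D2:**
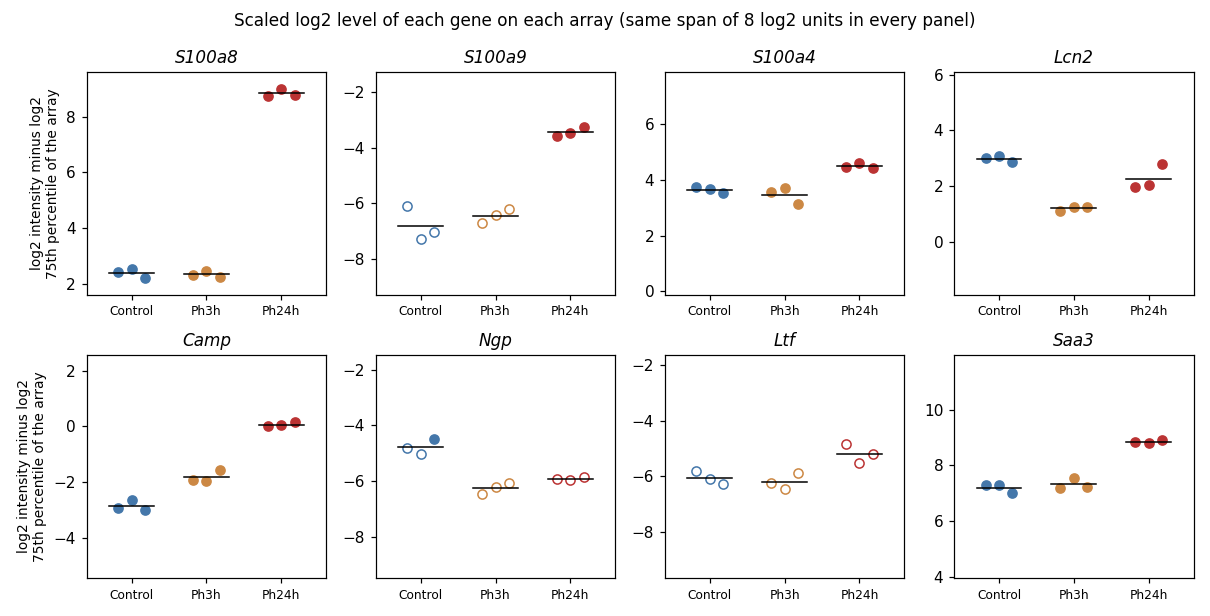
Scaled log2 level (log2 of the signal over the 75th percentile of its array) of the 8 genes in control, Ph3h and Ph24h microglia, with 1 point per array, the mean of 3 arrays as a bar and open circles for arrays not well above background. Every panel spans 8 log2 units, and the largest step is that of S100a8 from 2.34 in Ph3h to 8.84 in Ph24h.

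Among the 5 genes that were well above background on all 9 arrays, the order of the changes at 24 h ran from S100a8 (6.46) through Camp (2.94), Saa3 (1.65) and S100a4 (0.85) to Lcn2 (-0.72), and no neighbors in it had overlapping ranges of 1 standard error. S100a9 and Ngp were dim in a group and have no place in this order. At 3 h Camp was the only measured gene of the set whose arrays all lay above the control arrays. In the fit over all genes, 1 of 7 measured genes was called higher and 2 lower at 3 h, where 27.9% of all genes were called higher and 26% lower. At 24 h, 5 were called higher and 2 lower, where 29.9% of all genes were called higher and 33.2% lower. These calls belong to the contrasts that chose the set, and nothing is read from them. The median difference was -0.05 at 3 h and 1.65 at 24 h, against 0.07 and 0.01 over all genes.

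**Figure D3:**
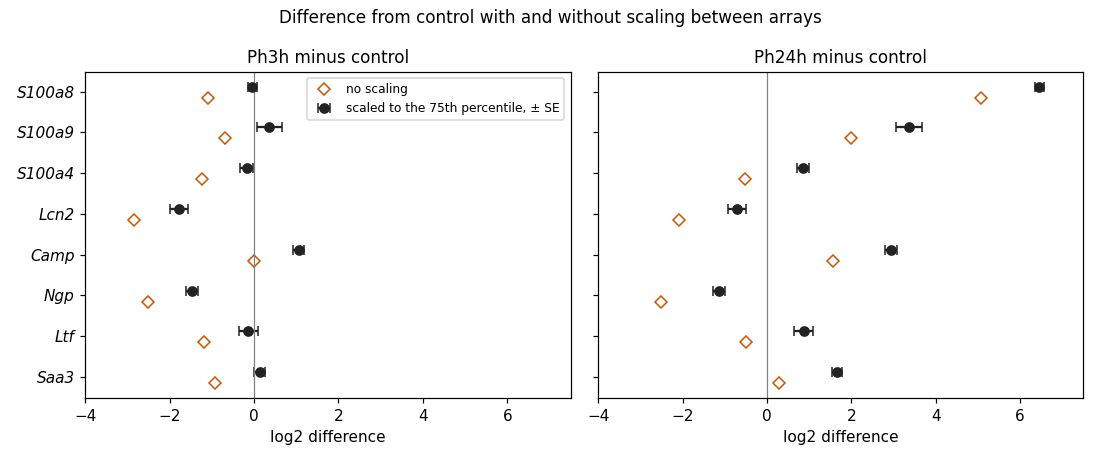
Log2 difference from control at 3 h and 24 h for the brighter probe of each of the 8 genes, as filled points when scaled to the 75th percentile (bars are the standard error from the limma fit) and as open diamonds without scaling between arrays. S100a8, S100a9, Camp and Saa3 lie to the right of 0 at 24 h with either value, S100a4 and Ltf change sign, and Lcn2 and Ngp lie to the left. S100a9 in control and Ph3h, Ngp in Ph3h and Ph24h, and Ltf in all groups were not well above background, so those points are not measured folds.

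S100a8 and S100a9 are next to each other on chromosome 3, with no gene between them in RefSeq, inside a run of S100 genes. At 24 h the genes of this run that come before S100a8 and were well above background on some array of both groups had log2 differences of -0.44 (S100a1), 0.70 (S100a13), 2.49 (S100a16), 0.10 (S100a3), 0.22 (S100a2), 0.85 (S100a4), 1.31 (S100a5) and 1.74 (S100a6), and those after S100a9 had 1.18 (S100a11) and 1.63 (S100a10). S100a7a, between S100a6 and S100a8, was well above background on 1 Ph3h and 1 Ph24h array and did not pass the test. On chromosome 7, Saa1 lies near Saa3 and rose by 1.80 at 24 h (SE 0.10, 3.47-fold, limma adjusted p = 5.6e-06), and Saa2, named after its values were seen, rose by 0.93 (SE 0.28, limma adjusted p = 0.021). Saa genes resemble each other closely, and sharing of signal between their probes was not tested.

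Neutrophil markers were read because most of the 8 genes are best known from neutrophils. Ly6g, Retnlg and Cxcr2 were not well above background on any of the 9 arrays. Csf3r, the receptor of G-CSF, was well above background on all 9 and was higher at both times, by 1.58 at 3 h (SE 0.13, limma adjusted p = 4.8e-05) and by 1.80 at 24 h (limma adjusted p = 1.9e-05). Of 20 neutrophil markers, 10 or 11 were dim on every array of a group. The list also holds Fpr1, Mmp8 and 4 stefin A genes, which were higher at 24 h: Stfa3 by 7.78, Stfa2l1 by 5.44, Mmp8 by 2.84 and Fpr1 by 1.54, with bounds of at least 12.7-fold for Stfa1 and at least 15.9-fold for Stfa2. All 6 passed the test (limma adjusted p of 3.3e-08, 7.4e-08, 2.2e-06, 4e-06, 2.9e-07 and 4.2e-06 in that order). Of the rest, Elane passed it at 24 h, with a rise of 0.49 (limma adjusted p = 0.0062), and Padi4 was dim in both control and Ph24h. The summed level of the list, in multiples of the 75th percentile, ran from 217 to 239 in control, from 380 to 421 at 3 h and from 703 to 770 at 24 h. Most of this sum came from Fpr1 and Csf3r, which were bright in control too. Their scaled log2 levels were 6.98 and 6.49 in control and 8.52 and 8.29 at 24 h. The part of neutrophils in the changes of the 8 genes was not tested.

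The monocyte marker Ccr2 was likewise dim on all 9 arrays. Of the same list, Plac8 was dim in control and well above background on 2 Ph24h arrays. Its intensity was 13.8, 8.89 and 11.6 in control cultures and 8.54, 23.0 and 14.8 after 24 h, which overlap. The scaled fit called Plac8 higher at 24 h (limma adjusted p = 0.014), and no fold is given. Treml4 rose by 1.09 at 24 h (SE 0.12, limma adjusted p = 0.00016). Nr4a1, an immediate early gene, rose by 6.93 at 3 h (SE 0.32, limma adjusted p = 3.1e-06) and 1.60 at 24 h (limma adjusted p = 0.0035). The summed level of 9 monocyte markers was 227 to 237, 321 to 347 and 241 to 284 in control, Ph3h and Ph24h. The summed level of microglial markers was 1241 to 1317, 1781 to 1907 and 1079 to 1122. It was 15.0 to 19.3, 16.5 to 18.8 and 17.4 to 17.7 for astrocyte markers, 266 to 326, 420 to 478 and 211 to 245 for oligodendrocyte lineage markers, 1.13 to 1.84, 5.55 to 6.47 and 7.53 to 8.30 for fibroblast markers, and 8.19 to 11.4, 12.1 to 12.3 and 13.7 to 15.3 for endothelial markers.

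A list of genes known from SH-SY5Y cells, the cells that were fed, was read as well. The summed level of 14 SH-SY5Y markers ran from 0.882 to 1.00 in control, from 1563 to 1688 at 3 h and from 2283 to 2633 at 24 h. Vgf, a neuropeptide precursor, rose by 12.89 at 3 h (SE 0.18, limma adjusted p = 1.3e-08). Most of the sum at 3 h and 24 h was Vgf, at scaled log2 levels of 10.40 and 11.13. At 3 h the genes S100a8, S100a4, Saa3, Camp and Lcn2 differed from control by -0.05, -0.18, 0.13, 1.06 and -1.78. The study reports low homology to human transcripts for most array probes. It also reports degraded RNA and no active transcription in apoptotic SH-SY5Y cells, and real-time PCR that placed Vgf among the genes of largest expression. From the arrays read here, the source of the signal of this list, and any part of human RNA in the probes of the 8 genes, was not tested.

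Other genes of the same pathways were taken from lists of S100 genes, granule proteins, receptors and signal partners, acute phase proteins, upstream cytokines and transcription factors, and other alarmins. In all, 100 of 121 genes were tested, and 40 were higher and 21 lower at 3 h (limma adjusted p under 0.05 over all genes), against 27.9% and 26% of all genes. At 24 h 45 were higher and 22 lower, against 29.9% and 33.2%. The median difference was 0.26 at 3 h and 0.31 at 24 h. This balance depends on the scaling: with median scaling the counts of rises and falls were 29 and 25 at 3 h and 34 and 36 at 24 h, and without scaling they were 15 and 60 at 3 h and 14 and 56 at 24 h. By list, median scaling gave at 24 h 5 rises and 2 falls for S100 genes, 7 and 5 for granule proteins (median 0.19), 5 and 10 for receptors and signal partners (median -0.47), 3 and 5 for acute phase proteins (median -0.31), 10 and 9 for upstream cytokines and transcription factors (median -0.10) and 5 and 6 for other alarmins (median -0.33). At 3 h it gave 3 and 2, 5 and 2, 4 and 6, 5 and 6, 10 and 6, and 4 and 3 in the same order. Quantile normalization gave 5 rises and 4 falls for acute phase proteins at 24 h, with a median of -0.29. A change of scaling moves the differences of all genes, not only those listed. The shares of all genes called are given for the main scaling only, so counts under the other scalings cannot be set against them.

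Of 11 other S100 genes tested, 3 rose and 1 fell at 3 h (median difference 0.21), while 6 rose and 2 fell at 24 h (median 1.18.) S100a6, a calcium sensor of growing cells, rose by 1.74 at 24 h (SE 0.12, 3.34-fold, limma adjusted p = 1.2e-05), and S100a10, the partner of annexin A2, rose by 1.63 (SE 0.09, 3.11-fold, limma adjusted p = 4.9e-06). Neither passed the test at 3 h, with differences of 0.14 and 0.21. S100a16 rose by 1.75 at 3 h and 2.49 at 24 h (limma adjusted p = 1.1e-05 and 1.4e-06), but its other probe gave -0.46 and -0.33. S100a5 rose by 1.16 and 1.31 (limma adjusted p = 0.0014 and 0.00064), and without scaling its difference at 24 h was -0.07. S100b, an S100 protein best known from astrocytes, was at least 1.31-fold lower at 24 h (limma adjusted p = 0.0016).

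Of 18 granule genes tested, 7 rose and 1 fell at 3 h (median difference 0.48), while 8 rose and 3 fell at 24 h (median 0.70.) Slpi, an inhibitor of neutrophil elastase, rose by 3.25 at 24 h (SE 0.11, 9.53-fold, limma adjusted p = 6e-07), and its rise of 0.50 at 3 h became -0.55 without scaling. Mmp8, the collagenase of neutrophil granules, rose by 2.84 at 24 h (SE 0.13, 7.17-fold, limma adjusted p = 2.2e-06) but at 3 h its difference of 0.31 missed the threshold (limma adjusted p = 0.086). The lysozyme gene Lyz1 rose by 1.29 at 3 h and 1.71 at 24 h (limma adjusted p = 0.00011 and 2e-05), and without scaling by 0.24 and 0.33. Lyz2, the other lysozyme gene of the list, named after its values were seen, did not pass the test. It had differences of 0.20 and 0.03 (limma adjusted p = 0.084 and 0.79). Hp, haptoglobin, rose 2.84-fold at 3 h and 3.06-fold by 24 h (limma adjusted p = 1.8e-05 and 9.4e-06). Mmp9, a gelatinase, rose by 2.10 at 3 h (SE 0.14, 4.29-fold, limma adjusted p = 2e-05) and by 1.01 at 24 h, which became -0.36 without scaling. Fcnb, a ficolin, was well above background on only 1 Ph24h array and on no control array. Its intensity was 4.92, 3.69 and 3.41 in control cultures and 2.92, 11.54 and 15.75 after 24 h. The scaled fit called it higher at 24 h (limma adjusted p = 0.0068), but the other Ph24h arrays were dim, so no fold is given.

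Among 18 receptors and signal partners, 6 rose and 6 fell at 3 h (median difference 0.11), while 6 rose and 7 fell at 24 h (median 0.04.) Cd14, the co-receptor of Tlr4, rose by 2.17 at 3 h and 2.45 at 24 h (SE 0.07, 5.45-fold at 24 h, limma adjusted p = 4.5e-07 and 1.8e-07). Tlr2 rose by 2.76 at 3 h (SE 0.05, limma adjusted p = 4.5e-08) and 1.21 at 24 h, which became -0.16 without scaling. Tlr4, named here after its values were seen because calprotectin acts on it, fell by 1.53 at 3 h (SE 0.05, limma adjusted p = 6.3e-07) and had a difference of -0.06 at 24 h (limma adjusted p = 0.32). The formyl peptide receptor genes Fpr2 and Fpr1, of which Fpr2 also binds serum amyloid A, rose at 24 h by 2.56 (SE 0.07, 5.91-fold, limma adjusted p = 1.7e-07) and 1.54 (SE 0.08, limma adjusted p = 4e-06). Cd69, a lectin receptor, fell by 1.64 at 24 h (SE 0.13, limma adjusted p = 2.5e-05).

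Of 20 acute phase genes tested, 5 rose and 5 fell at 3 h (median difference 0.18), while 7 rose and 2 fell at 24 h (median 0.20.) Serpina3g, a protease inhibitor, was 10.4-fold higher at 3 h (3.38, SE 0.34, limma adjusted p = 0.00012) and had a difference of 0.19 at 24 h (limma adjusted p = 0.65). Il1rn, the antagonist of the IL-1 receptor, rose by 2.49 at 3 h (SE 0.09, 5.61-fold, limma adjusted p = 7.5e-07), and its smaller value of 0.32 at 24 h was -0.18 with median scaling and -1.05 without scaling. Lbp, which carries lipopolysaccharide to Cd14, was at least 2.37-fold lower at 24 h (limma adjusted p = 0.00031). Cp, ceruloplasmin, was higher by 0.62 at 3 h (limma adjusted p = 6e-04), which was -0.43 without scaling, and its difference at 24 h was -1.19 (SE 0.08, limma adjusted p = 1.8e-05).

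Of 23 upstream cytokines and transcription factors tested, 15 rose and 6 fell at 3 h (median difference 0.39), while 13 rose and 7 fell at 24 h (median 0.41.) Csf3, which encodes the granulocyte growth factor G-CSF, had an intensity of 4.50, 5.76 and 9.82 in control cultures, 32.6, 42.0 and 42.4 after 3 h of feeding and 836, 1156 and 1016 after 24 h. It was not well above background in control, so its rise is a bound, 6.49-fold or more at 3 h and 209-fold or more at 24 h (limma adjusted p = 0.00014 and 1.6e-06). Il6, the interleukin-6 gene, did not pass the test at 3 h, with a difference of 0.26 (limma adjusted p = 0.23), and rose by 4.18 at 24 h (SE 0.17, 18.1-fold, limma adjusted p = 1.1e-06). Il1b, the IL-1β gene, rose early and further, by 3.22 at 3 h and 4.98 at 24 h (SE 0.09, 31.6-fold at 24 h, limma adjusted p = 3.5e-07 and 3.5e-08). Gfi1, a repressor needed in neutrophil development, fell by 1.80 at 3 h (SE 0.30, limma adjusted p = 0.0015) and was at least 3.83-fold lower at 24 h (limma adjusted p = 3e-05). Cebpa, Cebpb, Cebpd and Cebpe, the C/EBP genes of the list, were also named after their values were seen. Their differences were 0.39, 1.86, -2.91 and -1.17 at 3 h and -0.67, 1.51, -0.66 and 0.19 at 24 h. The Cebpe difference at 24 h did not pass the test (limma adjusted p = 0.36). Spi1, the PU.1 gene, had differences of 0.26 at 3 h and -0.46 at 24 h.

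Of 12 other alarmin genes tested, 6 were higher and 2 lower at each time, with a median difference of 0.29 and 0.18. Hspa1a, an inducible heat shock protein, rose 21.1-fold at 3 h and 15.5-fold by 24 h (log2 SE 0.09, limma adjusted p = 9.3e-08 and 1e-07). Crisp3, a secreted granule protein, was at least 3.74-fold higher at 24 h (limma adjusted p = 0.00093). Hmgb1, a nuclear DNA-binding protein released from dying cells, rose by 2.77 at 24 h on its brightest probe (limma adjusted p = 8.2e-08), whereas its other probes ran from -0.92 to 2.35. Nampt, the enzyme of NAD salvage, had a difference of -0.25 at 3 h (limma adjusted p = 0.012) and 0.98 at 24 h (limma adjusted p = 1e-05), the latter -0.40 without scaling.

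**Figure D4:**
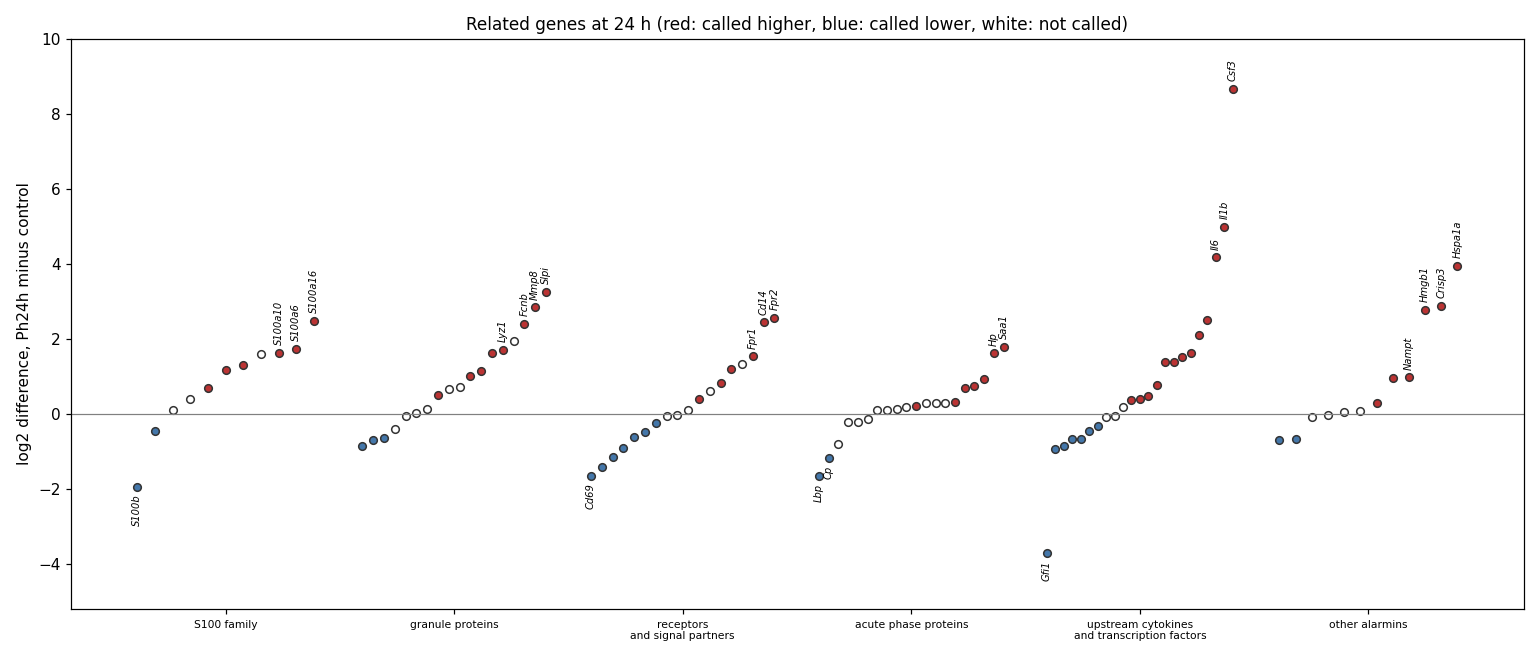
Log2 difference between Ph24h and control microglia, scaled to the 75th percentile, for each of the 100 tested genes of the 6 lists. Each point is 1 gene, red when called higher, blue when called lower and white when not called, and labeled genes are those named for 24 h, from Csf3 and Il1b (4.98) at the top to Gfi1 at the bottom, where the points of genes that were dim in a group (such as Csf3 and Gfi1) are fitted values and not measured folds.

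The genes whose pattern over the 9 arrays was most like that of S100a8 were found by Pearson's r of the scaled log2 levels over 24,102 genes. With 9 arrays in 3 groups, r rests mostly on the group means, and 454 genes had r above 0.95 and 76 above 0.99. The 10 highest ran from 0.997 to 0.999. Among them were Bst1, an ectoenzyme that cleaves NAD, with a difference of 1.37 at 24 h, the cationic amino acid transporter Slc7a2 with 2.65, the actin-binding profilin Pfn2 with 1.397, and 4 with larger differences, which were Stfa2l1 (5.44), 2010005H15Rik (5.44, Csta2 in RefSeq), BC100530 (5.50, Cstdc5 in RefSeq) and a predicted gene listed as ENSMUST00000077110 (5.30). The remaining 3 were a long noncoding RNA on chromosome 3 (1.03) and the unnamed probes A_55_P2037689 (1.71) and A_55_P2168781 (1.62). Of the set itself, Saa3 ranked at 109 (r = 0.987), S100a9 at 279 (0.970), S100a4 at 530 (0.941) and Camp at 672 (0.926), and Lcn2 (0.111) and Ngp (-0.296) did not share the pattern.

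Stefin A genes, which encode inhibitors of cysteine cathepsins and lie together on chromosome 16, stood out among these and were then read as a family, after their values were seen and with no test. Of 10 that matched the arrays, 8 were well above background on all 3 Ph24h arrays, and 4 of the 10 (Stfa1, Stfa2, Stfa2l1 and Stfa3) are in the neutrophil list above. For the 5 that were well above background on all control arrays, log2 differences were 5.44 to 7.78 at 24 h and -0.15 to 0.82 at 3 h. Stfa1 and Stfa2 were dim in control and have the bounds given above. Stfa3 had an intensity of 59.1, 50.9 and 40.3 in control cultures, 46.8, 47.0 and 33.8 after 3 h of feeding and 4053, 4423 and 4132 after 24 h, 220-fold above control after scaling. Csta1 gave no signal well above background and BC117090 (Cstdc6) on none of the fed arrays. These copies are near identical, so their probes may read the same transcripts and are not independent.

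**Figure D5:**
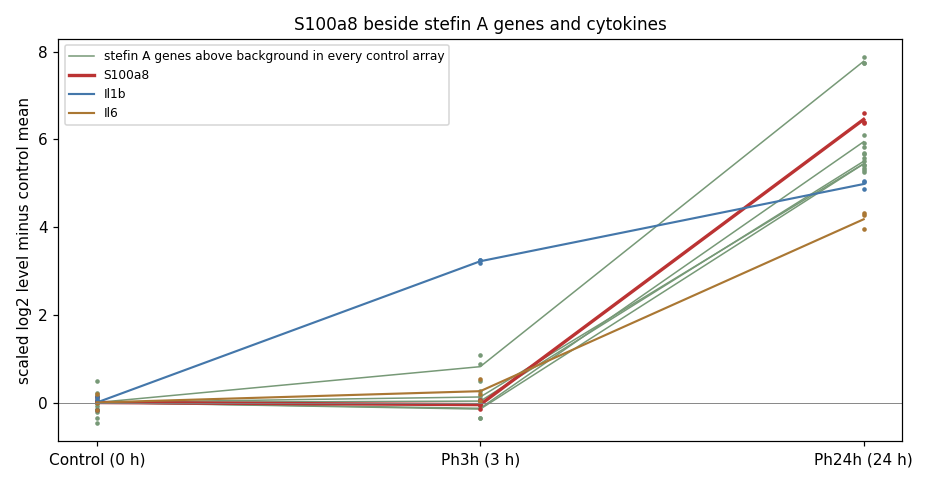
Scaled log2 level minus the mean of the control arrays for S100a8, the 5 stefin A genes that were well above background on every control array, Il1b and Il6. Points are single arrays and lines join group means; S100a8 steps up by 6.46 at 24 h only, the stefin A lines by 5.44 to 7.78, and Il1b is already at 3.22 at 3 h.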

How the data were processed

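Total RNA of 9 microglial cultures was hybridized to single-color Agilent 60-mer mouse arrays on 2 slides, with replicates 1 and 2 of each group on slide 1 and replicate 3 on slide 2. The authors deposited scanner files from Agilent Feature Extraction 10.7.3.1, whose processed signal is a background-subtracted intensity on a linear scale that is not normalized between arrays. The authors also deposited log2 values of 36,655 probes from GeneSpring, centered per probe over the arrays, and the sources used here do not say how these were scaled. Probe coordinates in the files are on mm9.

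Here, flagged spots were left out (56 probes had no unflagged spot on some array), spots of a probe were averaged, and log2 intensity minus the 75th percentile of the array's non-control probes was used. Probes well above background on at least 1 array were kept, 34,385 in all, and each of 24,102 genes was represented by its brightest probe. The number of arrays limits the precision. The 3 groups were fitted together with limma 3.58.1 (R 4.3.3, with the packages data.table, version 1.17.8, and jsonlite 2.0.0), with Benjamini-Hochberg adjustment over all genes and calls at an adjusted p under 0.05, after the scripts had been tested on simulated data. The contrasts take the place of the regression on time up to degree 2 in the methods, which has as many coefficients. Where every array of a group failed to rise well above background, a gene has a bound in place of a fold, set by the lowest signal well above background. Bounds are for scaled levels and depend on the scaling. Fcnb and Plac8 are given none, since some of their Ph24h arrays were dim as well.

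The 8 genes, the lists and the alternatives were chosen with earlier results of these data known. Named are all 8 genes with every probe, of each list up to 4 called genes with the largest difference at 24 h and up to 2 at 3 h, the 10 genes most like S100a8, and the first 3 markers and the summed level of each marker list. Of 28,026 probes whose accession is in RefSeq, 26,375 have the same symbol there. Same-numbered arrays of different groups did not deviate together (correlations of -0.0571 to 0.0413). These correlations are over all genes past the filter, dim ones included, so they cannot decide whether the numbers pair the samples. The main fit used no pairing. Alternatives were quantile normalization, median scaling, no scaling, normexp, the authors' log2 table, other filters, slide or replicate number as a block, slide 1 alone, a variance trend, only the 2 groups compared, and each array left out.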

Additional observations from a re-analysis of the deposited data

Results flagged for a closer look

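Of 29 genes named from the lists, 27 differed between Ph24h and Ph3h (limma adjusted p under 0.05), and 2 of these were called in opposite directions at the 2 times. The genes were named for large differences from control on these same arrays. Nothing is read from these counts, and the share over all genes is not given here. Cp was higher than control at 3 h and lower at 24 h, with a difference between the times of -1.81 on the log2 scale, and without scaling it was lower at both times. Nampt was lower than control at 3 h and higher at 24 h, with a difference between the times of 1.23, and without scaling it was lower at both times.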

How the results depend on the processing

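Without scaling between arrays, no gene of the set was called higher and 5 were called lower at 3 h (0 and 5), and 3 higher (S100a8, S100a9 and Camp) and 3 lower (S100a4, Lcn2 and Ngp) at 24 h. S100a4 then reversed at 24 h, to -0.53. For the listed genes, no scaling, chosen after seeing the data, gave 15 rises and 60 falls at 3 h and 14 rises and 56 falls at 24 h, and median scaling gave 36 lower at 24 h. The S100a8 difference at 24 h was 5.95 with median scaling, 6.30 with normexp and quantile normalization and 5.08 without scaling. With the filter on all 3 arrays of a group, Ngp was not tested and 1 gene of the set was lower at each time, and with a variance trend 1 was lower at 24 h, since Ngp lost its call. Median scaling left 4 genes of the set higher at 24 h, since S100a4 (0.34) lost its call, and no filter gave 6, with Ltf added. With no filter, 53 listed genes were higher at 3 h and 61 at 24 h. For the alternatives here and below, the counts stand without the shares of all genes called and cannot be set against them.

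Leaving out each array gave 38 to 43 rises and 17 to 20 falls at 3 h among the listed genes, 44 to 47 rises and 21 to 22 falls at 24 h, and 6.37 to 6.52 for S100a8 at 24 h. In the set it gave 1 to 2 higher (S100a9 was added without control replicate 1) and 2 lower at 3 h, and 5 higher and 1 to 2 lower at 24 h, since Lcn2 lost its call without control replicate 2, Ph24h replicate 1 or Ph24h replicate 2. The replicate block left the calls of the set at 1 rise and 2 falls at 3 h and 5 rises and 2 falls at 24 h, and gave 43 and 20 listed genes at 3 h and 45 and 22 at 24 h. The regression on time, for which the share of all genes is known, called 77 of 100 listed genes, against 16,251 of all 24,102 genes. At 24 h the S100a9 value ran from 0.45 to 3.72 and the Ngp value from -2.52 to -0.24 over the alternatives.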
